A study of Mus musculus with 9 samples.

Results

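The genes that write, copy and remove methyl groups on cytosine were followed through 4 lists of chromatin contacts from mouse embryonic stem cells. They are 8 genes: Tet1, Tet2, Tet3, Dnmt1, Dnmt3a, Dnmt3b, Dnmt3l and Uhrf1. A contact, here called a pair, is a row joining 2 genomic bins, and it was assigned to a gene when a bin overlapped the gene body extended by 5 kb on each side (mm10, GENCODE M21). The 8 genes held 188 of the 137744 rows in the 4 lists. Of these, 86 were H3K27ac pairs of untreated cells, 80 were H3K27ac pairs after IAA, 14 were CTCF pairs and 8 were RAD21 pairs.

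The cells were of the E14 line with the genotype CTCF AID, in which an auxin-inducible degron is fused to CTCF, so that the auxin IAA brings about its degradation. All groups were grown without serum on gelatin, with LIF, PD0325901 and CHIR99021, conditions that hold the cells in a naive state. MNase HiChIP, in which crosslinked chromatin is cut by micrococcal nuclease, ligated and enriched with an antibody, gave 2 untreated H3K27ac libraries, 2 H3K27ac libraries after 12 h of IAA, 2 untreated CTCF libraries and 3 untreated RAD21 libraries. The libraries of a group were merged into 1 list before deposit, so no value below carries an error between replicates, and every test compares 2 pooled libraries rather than 2 conditions. CTCF and RAD21 contacts after IAA, the CTCF protein level and whether the tagged line is 1 clone were not analysed here.

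DNA methylation is laid down by DNMT3A and DNMT3B, helped in germ cells and stem cells by the catalytically inactive DNMT3L. It is copied at replication by DNMT1, which UHRF1 recruits to hemimethylated DNA. The TET dioxygenases oxidise 5-methylcytosine and so start its removal. Naive embryonic stem cells are known for low methylation and for TET1 and TET2 as their main TET enzymes. H3K27ac marks active promoters and enhancers, CTCF stops the loop-extruding cohesin complex at oriented motifs, and RAD21 is a cohesin subunit.

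The H3K27ac lists held 36274 pairs of 2 kb bins before and 28210 after IAA, and the CTCF and RAD21 lists 49630 and 23630 pairs of 1 kb bins. The contact totals of the authors' models came to 12551236 and 14629323 for H3K27ac, 2839756 for CTCF and 1517698 for RAD21. These totals were inferred from each list, as the median over pairs of expected contacts divided by binomial probability. In untreated cells 9 of 10 naive pluripotency genes had H3K27ac pairs at their start bins, from 7 to 21, and Utf1 had 0. Of 4 marker genes each of fibroblasts, neural cells, trophoblast and primitive endoderm, 1, 1, 2 and 0 had any such pair, and none had more than 1.

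H3K27ac contacts were listed at 4 of the 8 genes: the erasers Tet1 and Tet2 and the maintenance pair Dnmt1 and Uhrf1. Tet3 and the de novo genes Dnmt3a, Dnmt3b and Dnmt3l had 0 in both lists. Among all 21911 protein-coding genes with the same window, 41.9% had an untreated H3K27ac pair. A CTCF pair was listed at 5 of the 8 genes, against 53.9% of protein-coding genes, and a RAD21 pair at 5 of the 8, against 41.9%. Within 5 kb, Tet3 and Dnmt3a had no pair in any of the 4 lists. These calls changed with the setting: within 20 kb Tet3 had 8 CTCF and 5 RAD21 pairs and Dnmt3a 6 and 1, and Tet3 also had 2 untreated H3K27ac pairs. With those, 5 of the 8 genes had an untreated H3K27ac pair within 20 kb, against 48.4% of protein-coding genes. Within 20 kb 7 of the 8 genes had a CTCF pair and 8 a RAD21 pair, against 66.3% and 55.8% of protein-coding genes. At a q of 0.01 the CTCF and RAD21 pairs of Tet2 and the RAD21 pair of Dnmt3b were lost, which left 4 and 3 of the 8 genes against 48.4% and 35.8%.

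**Figure D1:**
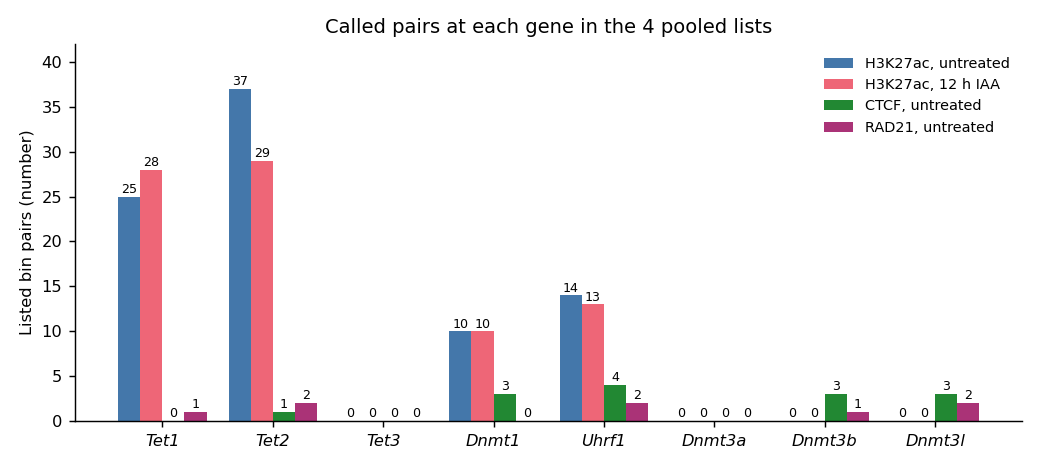
Number of called pairs (vertical axis) at each of the 8 genes in the 4 pooled lists. Tet2 and Tet1 carry most H3K27ac pairs, with 37 and 25 before and 29 and 28 after IAA, Dnmt3b and Dnmt3l carry CTCF and RAD21 pairs alone, and Tet3 and Dnmt3a carry none.

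The promoters of Tet2, Tet1 and Dnmt3a are printed because they bear on the H3K27ac result: the start-site bins of Tet2 and Tet1 were among the busiest bins of the set, and that of Dnmt3a had no pair. Each is the RefSeq window of 300 bases on GRCm38.p6, from 250 bases before to 50 bases after the start, read 5′ to 3′ along the gene with every CG in capitals. The Tet2 window (chr3:133544341-133544640, minus strand) held 57 CG, a number reached by 0.152% of the 32851 RefSeq mouse promoters, whose median was 7. The first Dnmt3a window (chr12:3806730-3807029, plus strand) held 46 CG and the Tet1 window (chr10:62887275-62887574, minus strand) held 17. These numbers were reached by 1.65% and 31.4% of promoters. Dnmt3a was chosen among 4 genes with no H3K27ac pair and holds the most CG of these. Its further windows held 47 and 18 CG, so the printed window is not its highest. Dnmt3b, also with no pair, had 30 and Tet3 had 22, and the 3 windows of Dnmt3l had 6, 4 and 3. Among the genes with pairs, the windows of Dnmt1 had 33, 12 and 2 and those of Uhrf1 had 12 and 33. The number of CG was not tested against that of pairs.
Tet2: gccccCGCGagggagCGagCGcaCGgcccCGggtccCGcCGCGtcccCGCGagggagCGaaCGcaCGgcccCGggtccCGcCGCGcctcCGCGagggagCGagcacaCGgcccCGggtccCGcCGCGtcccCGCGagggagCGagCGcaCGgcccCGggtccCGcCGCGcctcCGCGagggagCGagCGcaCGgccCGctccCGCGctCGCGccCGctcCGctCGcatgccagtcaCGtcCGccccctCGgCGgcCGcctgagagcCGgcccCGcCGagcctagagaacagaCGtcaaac
Tet1: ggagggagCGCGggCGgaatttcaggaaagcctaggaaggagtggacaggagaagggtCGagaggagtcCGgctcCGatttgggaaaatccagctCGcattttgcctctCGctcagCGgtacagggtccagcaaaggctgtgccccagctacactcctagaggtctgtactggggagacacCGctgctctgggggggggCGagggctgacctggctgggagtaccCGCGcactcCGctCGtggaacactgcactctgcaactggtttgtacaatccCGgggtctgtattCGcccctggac
Dnmt3a: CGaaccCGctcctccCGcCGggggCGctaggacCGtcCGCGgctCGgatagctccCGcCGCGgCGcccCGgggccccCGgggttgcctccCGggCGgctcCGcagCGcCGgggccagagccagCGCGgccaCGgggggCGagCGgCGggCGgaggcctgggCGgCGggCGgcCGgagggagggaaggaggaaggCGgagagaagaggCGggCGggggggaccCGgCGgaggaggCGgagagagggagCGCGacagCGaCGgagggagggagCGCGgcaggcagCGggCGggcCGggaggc

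Of the 86 untreated H3K27ac pairs, 45 were called again after IAA in the same 2 bins, which is 52.3% (95% Wilson interval 41.9 to 62.6, counting error only). Over all untreated H3K27ac pairs the share was 42.9%, inside that interval. Read from the other list, 45 of the 80 IAA pairs, or 56.2%, had been called before, against 55.1% over all IAA pairs. The share was higher for pairs with more contacts: 1 of 8 pairs with 6 to 9 contacts, 5 of 21 with 10 to 14, 15 of 30 with 15 to 24 and 24 of 27 with 25 or more were called again. Over all untreated pairs in the same classes the shares were 14.7%, 30.9%, 55.3% and 82.9%. Pairs with both bins inside a gene's window were called again in 33 of 56 cases (58.9%, Wilson interval 45.9 to 70.8), and pairs that left the window in 12 of 30 (40.0%, 24.6 to 57.7). The median contacts were 21.5 for the former and 11 for the latter. Over all protein-coding genes the shares were 44.9% inside and 39.1% leaving, with medians of 16 and 12 contacts. When each anchor was allowed to move by 1 bin, 81.4% of the 86 pairs (71.9 to 88.2) had a counterpart after IAA, against 65.7% of all untreated pairs. Pairs of the same locus lie in neighbouring bins, so these counterparts are not independent.

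For the 45 pairs in both lists, the contacts were 1483 before and 1330 after IAA, of which Tet2 had 877 and 727. Pairs in 1 list alone have no count in the other, so they entered neither the ratio nor the test below. Scaled by the ratio over all 15551 pairs in both lists, the log2 ratio of the 45 was -0.13 (95% exact binomial interval -0.24 to -0.02). The median over the 45 pairs was -0.08 and over all shared pairs 0.03, with 20 pairs above and 25 below the overall ratio. No pair passed the exact binomial test after Benjamini-Hochberg adjustment over all 15551 pairs, where the lowest adjusted p of the set was 0.665, and 2 pairs had an unadjusted p under 0.05. Over all shared pairs 0.0965% were called higher and 0.0386% lower, and 4.41% had an unadjusted p under 0.05, against 4.44% here. The sign of the summed ratio depended on the scaling: it was -0.38 when scaled by the inferred model totals and 0.17 when scaled by the coverage of the anchors. Without the pair with most contacts of each gene the summed ratio was -0.09.

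**Figure D2:**
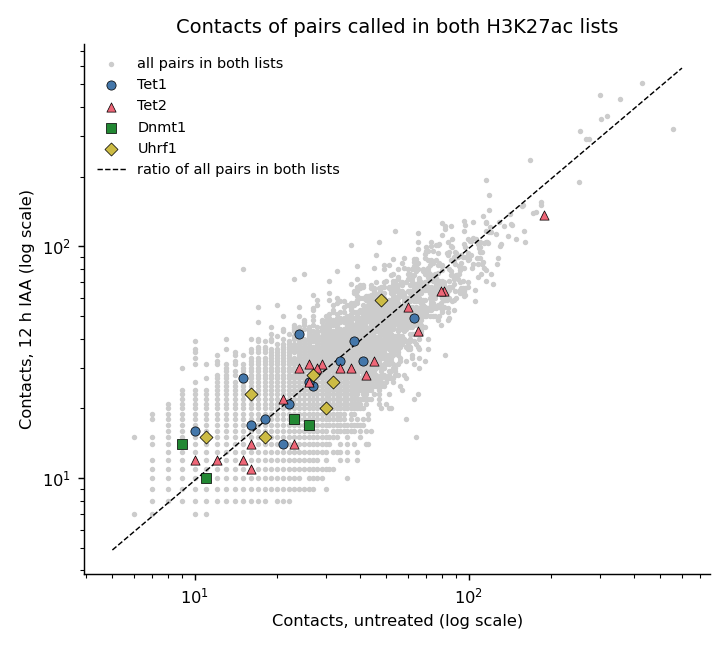
Contacts of every pair called in both H3K27ac lists, untreated on the horizontal and 12 h IAA on the vertical axis, both logarithmic; grey points are all 15551 pairs, coloured symbols the 45 pairs of Tet1, Tet2, Dnmt1 and Uhrf1, and the dashed line the ratio over all pairs. The coloured symbols lie within the grey cloud, and the strongest of them, the Tet2 pair with 188 and 136 contacts, lies below the line.

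**Figure D3:**
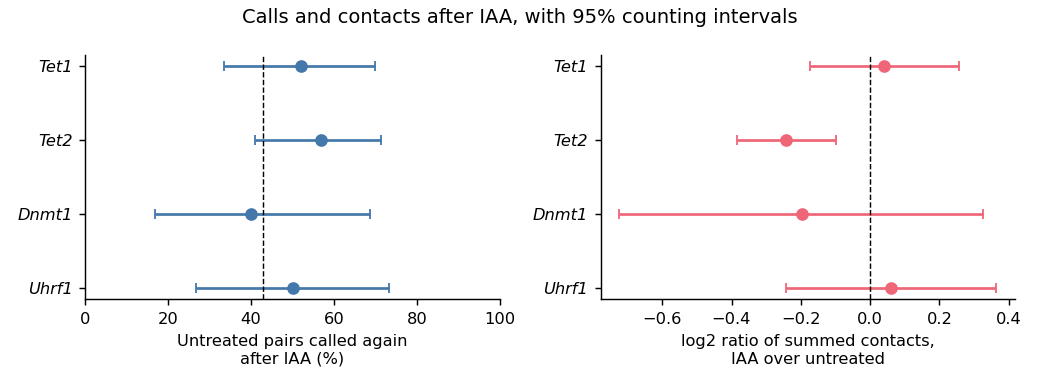
Left, percent of untreated H3K27ac pairs called again after IAA for the 4 genes with pairs; right, log2 ratio of contacts summed over pairs in both lists. Points are the values and bars the 95% counting intervals; the dashed lines mark 42.9% over all pairs and a ratio equal to that over all shared pairs. Only the Tet2 interval on the right lies wholly to 1 side of its line.

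Tet1, with Tet2 a main TET enzyme of naive stem cells, had 25 untreated and 28 IAA pairs, more than 98.3% of protein-coding genes before IAA. This rank and those of the other genes below were not adjusted for gene length, which sets the window and is 104 kb for Tet1. Only 41.9% of protein-coding genes had any untreated pair. The gene lies on the minus strand at chr10:62804570-62908996. Its contacts centred on the bin chr10:62886001-62888000, which holds the RefSeq start printed above and lies in an intron of the longer GENCODE model. This bin took part in 11 pairs with 239 contacts before and 12 pairs with 274 contacts after IAA, and its H3K27ac coverage was 5454 and 5410. The bin with the start of the longer coding transcript annotated in chr10:62898001-62900000 had 1 pair in each list. More Tet1 pairs were thus listed at the RefSeq start than at the GENCODE start upstream of it.

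The strongest Tet1 pair of untreated cells joined the RefSeq start bin to chr10:62892001-62894000, 6 kb upstream of it, with 63 contacts, and it had 49 after IAA. That second bin was the other busy bin of the locus, with 7 pairs in each list and 230 and 180 contacts. Of the 25 untreated pairs 13 were called again, or 52.0% (33.5 to 70.0). Summed over those 13, contacts were 355 and 358, a log2 ratio of 0.04 (-0.17 to 0.26), which was -0.21 when scaled by model totals and 0.19 by anchor coverage. Of the 1468 genes with at least 5 shared pairs, 62.9% had a lower ratio.

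Within Tet1 the ratios of single pairs lay on both sides of 0. The start bin and the bin at chr10:62902001-62904000, 16 kb apart, had 15 contacts before and 27 after IAA, a log2 ratio of 0.88 (-0.08 to 1.89, unadjusted p = 0.0638 in the exact binomial test). The pair of the start bin with the exon bin chr10:62864001-62866000, 22 kb downstream of it, had 24 and 42 contacts (log2 ratio 0.84, exact binomial p = 0.0261, adjusted p = 0.978). The lowest ratio was at the neighbouring bin chr10:62866001-62868000, where contacts with the start bin were 21 and 14 (-0.56). Adjacent exon and intron bins 2 kb apart therefore gave ratios of opposite sign to the same start bin, both short of the adjusted threshold. Of the pairs called in 1 list, the highest were 48 contacts over 6 kb before IAA, between chr10:62892001-62894000 and the bin at chr10:62898001-62900000, and 24 contacts over 12 kb after IAA, between the RefSeq start bin and that same bin. A pair not called in a list has no count there.

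Outside its window Tet1 reached the start of Slc25a16, which encodes a mitochondrial carrier, and those of Dna2, a nuclease-helicase of replication, and Hnrnph3, an RNA-binding protein. The Slc25a16 bin, chr10:62920001-62922000, had 1 Tet1 pair with 10 contacts before and 4 pairs with 57 contacts after IAA. The 1 pair called in both lists had 10 and 16 contacts (log2 ratio 0.71, -0.52 to 2.01). The bin next to it, chr10:62918001-62920000, had 2 Tet1 pairs with 19 contacts before IAA and none after. The Dna2 bin had 2 pairs with 23 contacts and the Hnrnph3 bin 2 pairs with 23 contacts, all before IAA alone. A bin 290 kb away had 1 pair with 9 contacts after IAA alone. In untreated cells 1 RAD21 pair joined the Tet1 start, chr10:62887001-62888000, to the Slc25a16 start, chr10:62920001-62921000, with 12 contacts where the authors' model expected 2.30 (q = 0.000458). Tet1 had no CTCF pair, and neither anchor of its RAD21 pair held a match to the CTCF motif core.

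Tet2, the other main TET enzyme of naive stem cells, had 37 untreated and 29 IAA pairs, more than 99.3% of protein-coding genes before IAA. This rank too was not adjusted for gene length, here 81.5 kb. Tet2 lies on the minus strand at chr3:133463679-133545139. Of its untreated pairs 35 joined 2 bins of its own window, so its contacts formed a dense group in the first 40 kb of the gene. The strongest bins were 2 intronic ones, chr3:133524001-133526000 and chr3:133532001-133534000, with 9 and 10 pairs and 535 and 464 contacts before IAA, and 10 and 6 pairs and 444 and 318 contacts after. The start-site bin, chr3:133544001-133546000, had 9 pairs with 208 contacts before and 6 pairs with 128 contacts after IAA.

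The pair between the 2 intronic bins, 8 kb apart, had 188 contacts before and 136 after IAA, the highest in each list over the 4 genes. Its log2 ratio was -0.44 (-0.77 to -0.11), with an exact binomial p of 0.00757 and an adjusted p of 0.665. Coverage of the first bin was 6801 and 6948, and of the second 6083 and 5178. The second bin thus had lower coverage after IAA, while the median bin of the H3K27ac lists had a log2 coverage ratio of 0.20. This was the single pair of the 8 genes called in the exact binomial test under the model totals (adjusted p = 0.0130). In untreated cells it coincided with 2 RAD21 pairs of 7 contacts each, which joined chr3:133524001-133525000 and chr3:133525001-133526000 to chr3:133533001-133534000.

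Contacts from the Tet2 start bin to these intronic bins were 45 before and 32 after IAA over 20 kb, and 34 and 30 over 12 kb. The lowest ratio was that of the bins chr3:133518001-133520000 and chr3:133534001-133536000, with 23 and 14 contacts (-0.69, -1.76 to 0.33). The highest was that of chr3:133516001-133518000 and the first intronic bin, with 24 and 30 contacts (0.35, -0.47 to 1.19). Both intervals include 0. The strongest pairs in 1 list alone had 33 contacts before IAA, between the start bin and a bin 8 kb away, and 32 after IAA, over 6 kb.

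Of the 37 Tet2 pairs 21 were called again, or 56.8% (40.9 to 71.3). Over those 21 the contacts were 877 and 727, a log2 ratio of -0.24 (-0.39 to -0.10), and 13 pairs lay below and 8 above the ratio over all shared pairs. Among genes with at least 5 shared pairs the median was -0.02, the central 80% ran from -0.31 to 0.21, and 16.2% had a ratio below that of Tet2. Scaled by anchor coverage the Tet2 ratio was 0.18, so its direction depended on the scaling. Over the 32 bins in the gene windows that were in both lists, the median log2 coverage ratio was 0.16, against 0.20 over all 16828 such bins.

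Tet2 had few partners outside its window. Before IAA these were the start bin of Ppa2, a mitochondrial pyrophosphatase, with 8 contacts over 222 kb, and a bin 44 kb away with 10 contacts. After IAA they were the shared start bin of Gstcd and Ints12, with 8 contacts over 434 kb, and an intergenic bin with 9 contacts over 56 kb. No partner was in both lists. The 1 CTCF pair of Tet2 joined an exon of Ppa2, chr3:133322001-133323000, to the Tet2 start, chr3:133544001-133545000, with 7 contacts (expected 1.65, q = 0.0464).

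**Figure D4:**
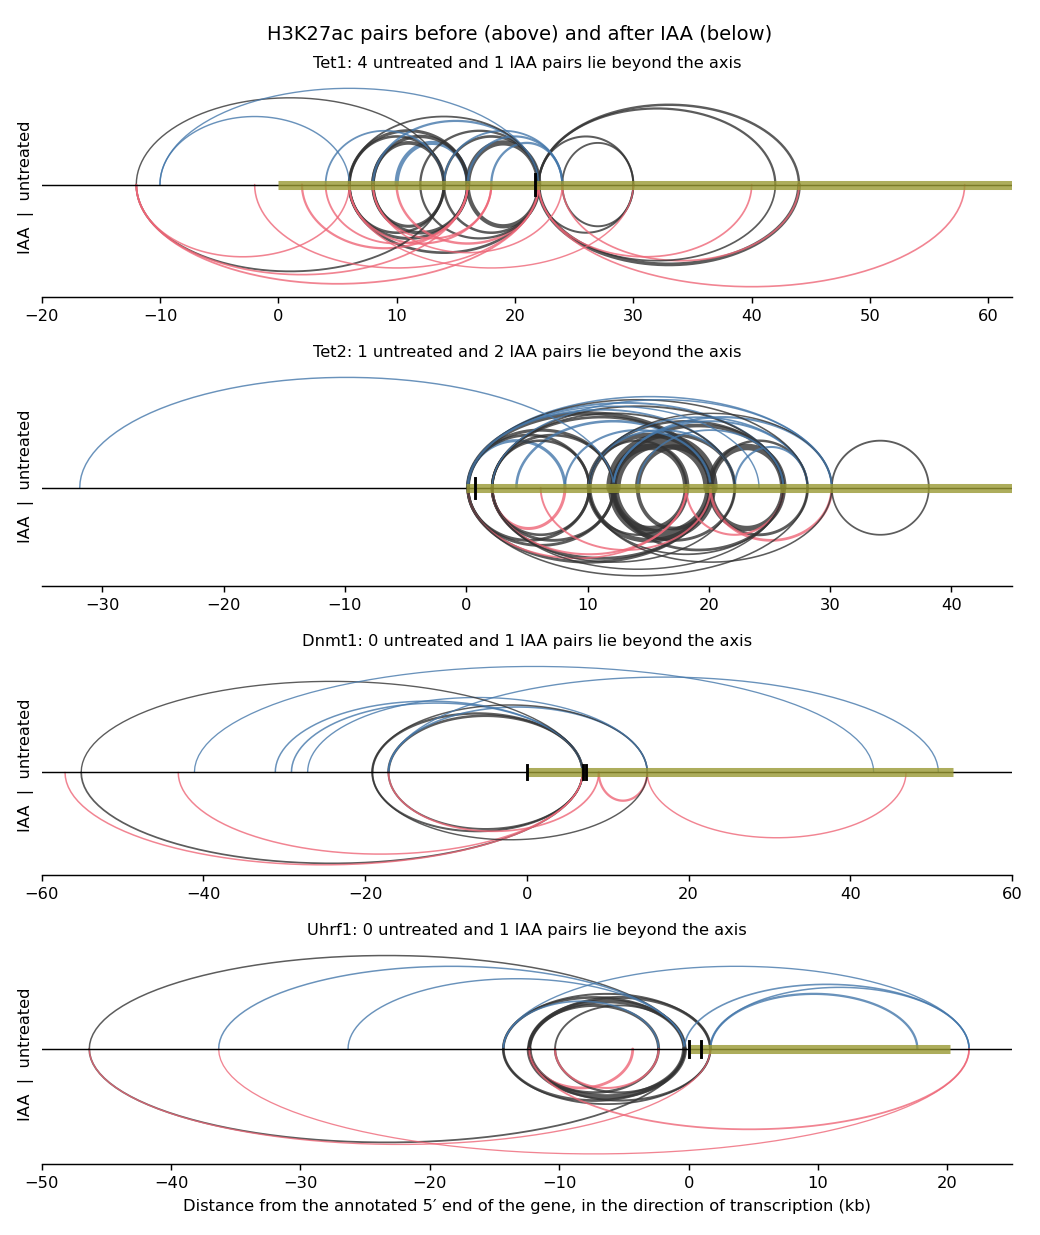
H3K27ac pairs as arcs at Tet1, Tet2, Dnmt1 and Uhrf1, untreated above and 12 h IAA below each line; the horizontal axis is the distance in kb from the annotated 5′ end, along transcription. Dark arcs were called in both lists and coloured arcs in 1 list, line width grows with contacts and arc height with the distance joined; the bar is the gene and the ticks are RefSeq starts. Tet1 and Tet2 arcs gather inside the gene, and most Dnmt1 and Uhrf1 arcs lead upstream of it. Pairs reaching beyond the axis numbered 4 before and 1 after IAA at Tet1 and 1 and 2 at Tet2. At Dnmt1 and at Uhrf1 they numbered 0 and 1.

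Dnmt1, the maintenance methyltransferase, had 10 untreated and 10 IAA pairs, more than 92.2% of protein-coding genes before IAA. It lies on the minus strand at chr9:20907209-20959888. The start bin with pairs, chr9:20952001-20954000, had 5 in each H3K27ac list, with 81 and 71 contacts and a coverage of 4416 and 4245. A further RefSeq start at the annotated 5′ end, in chr9:20958001-20960000, had 0 pairs in every list. The Dnmt1 start named below is the former bin. All 10 untreated pairs left the window, in contrast to the pairs of Tet2.

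Among bins outside the window, that with the most contacts before IAA held the start of S1pr2, a sphingosine 1-phosphate receptor gene upstream. The far end of S1pr2 overlaps the Dnmt1 window, and its start lies outside it. The start bins of Dnmt1 and S1pr2, 24 kb apart, had 26 contacts before and 17 after IAA (-0.58, -1.56 to 0.35). The next bin, with no annotated start, had 23 and 18 contacts with the Dnmt1 start (-0.32). The start of Icam1, an adhesion molecule of immune and endothelial cells, had 9 and 14 contacts over 62 kb (0.67, -0.64 to 2.06). The start of Mrpl4, a mitochondrial ribosomal protein, had 11 contacts with the Dnmt1 start after IAA alone. The strongest pairs in 1 list were 13 contacts of an intronic Dnmt1 bin with the S1pr2 bin before IAA, and 22 contacts over 6 kb within Dnmt1 after IAA.

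Of the 10 Dnmt1 pairs 4 were called again, or 40.0% (16.8 to 68.7). Those 4 had 69 and 59 contacts, a log2 ratio of -0.20 (-0.72 to 0.33), which was 0.18 with a window of 20 kb, 0.01 by anchor coverage, and -0.45 with model totals and at a q of 0.01. Both intervals are wide at these counts. The 3 CTCF pairs of Dnmt1 all had an anchor in its start bin or the 1 kb next to it. They led to the start of Eif3g, a translation initiation factor subunit, with 20 contacts over 54 kb (expected 5.26), to an intergenic bin with 16 contacts over 209 kb (3.24), and to the start of Icam4 with 12 contacts over 76 kb (3.67). Dnmt1 had no RAD21 pair.

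Uhrf1, which brings DNMT1 to newly replicated DNA, had 14 untreated and 13 IAA pairs, more than 95% of protein-coding genes before IAA. It lies on the plus strand at chr17:56303321-56323486, and its window takes in parts of Arrdc5 and Kdm4b, so some of its pairs can be theirs. Its first start bin, chr17:56302001-56304000, had 7 pairs with 136 contacts before and 5 pairs with 137 contacts after IAA. The second, chr17:56304001-56306000, had 4 and 3 pairs with 81 and 44 contacts. Coverage of the first was 6120 and 5975, and of the second 3366 and 3354.

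The main partner of Uhrf1 was the start bin of Plin3, which encodes a lipid droplet protein, at chr17:56290001-56292000. Its contacts with the first Uhrf1 start bin, 12 kb away, were 48 before and 59 after IAA (0.33, -0.25 to 0.91). Its contacts with the second were 30 and 20 (-0.56, -1.45 to 0.31), the lowest ratio at this gene. The highest was that of the first start bin with the next Plin3 bin, 16 and 23 contacts (0.55, -0.43 to 1.57). The 2 start bins therefore gave ratios of opposite sign to the same partner, with intervals that overlap.

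Of the 14 Uhrf1 pairs 7 were called again, or 50.0% (26.8 to 73.2). Their contacts were 182 and 186, a log2 ratio of 0.06 (-0.24 to 0.36), and 65.7% of genes with at least 5 shared pairs lay below it. The ratio was -0.19 with model totals and -0.05 without the strongest pair. The strongest pairs in 1 list alone were 22 contacts of the second start bin over 16 kb within the gene before IAA, and 29 contacts of the Plin3 start bin with an Arrdc5 exon after IAA. The longest was listed after IAA alone: 12 contacts over 282 kb between the Uhrf1 start and the shared start of Safb and Safb2, genes of scaffold attachment factors.

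Uhrf1 held contacts of all 3 antibodies between the same places. Its 4 CTCF pairs included the 2 strongest of the set, which joined chr17:56291001-56292000 in Plin3 to chr17:56304001-56305000 with 40 contacts (expected 6.93, q = 1.67e-15) and to chr17:56298001-56299000 with 33. The RAD21 list joined the same Plin3 bin to chr17:56303001-56304000 with 34 contacts (expected 3.55, q = 2.58e-19) and to chr17:56304001-56305000 with 24. The H3K27ac pair of the Plin3 start with the second Uhrf1 start bin was the single untreated pair of the 8 genes to coincide with a CTCF pair, 1.16% against 6.23% over all untreated pairs. RAD21 pairs coincided with 3 of the 86, 3.49% against 5.68%. When each anchor was free by 1 bin, the counts were 7 and 15 of 86, or 8.14% and 17.4%, against 13.1% and 13.2% of all untreated pairs.

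The Plin3 bin held a match to the 14-letter core of the CTCF motif with no mismatch, on the plus strand and so pointing towards Uhrf1. It is printed because it marks the shared end of these loops, with the core in capitals and 15 bases on each side (chr17:56291362-56291405, mm10, plus strand).
Plin3 anchor: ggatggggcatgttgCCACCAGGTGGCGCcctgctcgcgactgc
The 3 anchor bins at Uhrf1 itself, with CTCF or RAD21 contacts of up to 40, held no match with up to 1 mismatch. The same was true of the gene-side anchors of Tet1, Tet2 and Dnmt1.

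At Dnmt3l and Dnmt3b the gene-side anchors held a match with up to 1 mismatch. Over the 8 genes, 3 of the 8 CTCF anchors inside a gene window held one, against 41.7% of all CTCF anchor bins. Dnmt3l, the cofactor that stimulates DNMT3A and DNMT3B, lies on the plus strand at chr10:78041947-78063622, beside Aire, the transcription factor of thymic self-antigen expression. All its CTCF and RAD21 pairs shared the anchor chr10:78043001-78044000, which holds the Aire start, so they cannot be told apart between Dnmt3l and Aire. This anchor met an intergenic bin 15 kb away with 24 CTCF and 20 RAD21 contacts (expected 11.7 and 4.07). It met an intergenic bin 117 kb away on the other side with 24 CTCF and 15 RAD21 contacts (expected 4.93 and 2.72). Another CTCF pair, with 17 contacts over 59 kb, led to an exon of 1810043G02Rik. No H3K27ac pair was listed here before or after IAA.

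All 4 Dnmt3l anchors held a core match, and they are printed with the core in capitals because their strands give the orientation of the pairs. The sequences are from mm10, each read along the strand of its match.
Upstream anchor, chr10:78028268-78028311, plus strand: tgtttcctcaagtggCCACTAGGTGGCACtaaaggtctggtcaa
Shared anchor, chr10:78043533-78043576, minus strand: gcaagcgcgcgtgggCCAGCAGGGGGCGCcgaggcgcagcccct
Downstream anchor, chr10:78160124-78160167, minus strand: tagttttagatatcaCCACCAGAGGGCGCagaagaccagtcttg
1810043G02Rik anchor, chr10:77984851-77984894, plus strand: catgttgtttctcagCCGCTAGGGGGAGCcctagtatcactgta
The first 3 had no mismatch and the fourth had 1. The upstream anchor and the 1810043G02Rik anchor pointed towards the shared anchor and it towards them, so these 2 CTCF pairs were convergent. The pair with the downstream anchor was tandem, with both matches on the minus strand.

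Dnmt3b, the methyltransferase of the early embryo, lies on the plus strand at chr2:153649450-153687730 and had 3 CTCF pairs and 1 RAD21 pair. An intronic anchor, chr2:153668001-153669000, met a bin 26 kb away just beyond the gene with 11 CTCF contacts (expected 3.66). It met an exon of Bpifb3, 262 kb away, with 9 CTCF and 7 RAD21 contacts (expected 1.85 and 1.5). The remaining pair joined the start of the noncoding Dnmt3bos, chr2:153650001-153651000, to an intergenic bin 41 kb upstream with 12 contacts (expected 3.33). Neither the Dnmt3b start bin nor any other bin of the gene had an H3K27ac pair.

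The anchors of the 2 pairs from the intron are printed as above, with the core in capitals. The intronic match was on the plus strand and its partners' matches on the minus strand, so both pairs were convergent.
Intronic anchor, chr2:153668896-153668939, plus strand: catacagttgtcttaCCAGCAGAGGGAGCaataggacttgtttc
Near anchor, chr2:153694649-153694692, minus strand: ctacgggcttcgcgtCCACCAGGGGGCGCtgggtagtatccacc
Bpifb3 anchor, chr2:153930068-153930111, minus strand: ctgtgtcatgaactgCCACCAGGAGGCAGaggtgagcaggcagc
The near anchor had no mismatch and the other 2 had 1 each. The pair at Dnmt3bos was tandem.

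**Figure D5:**
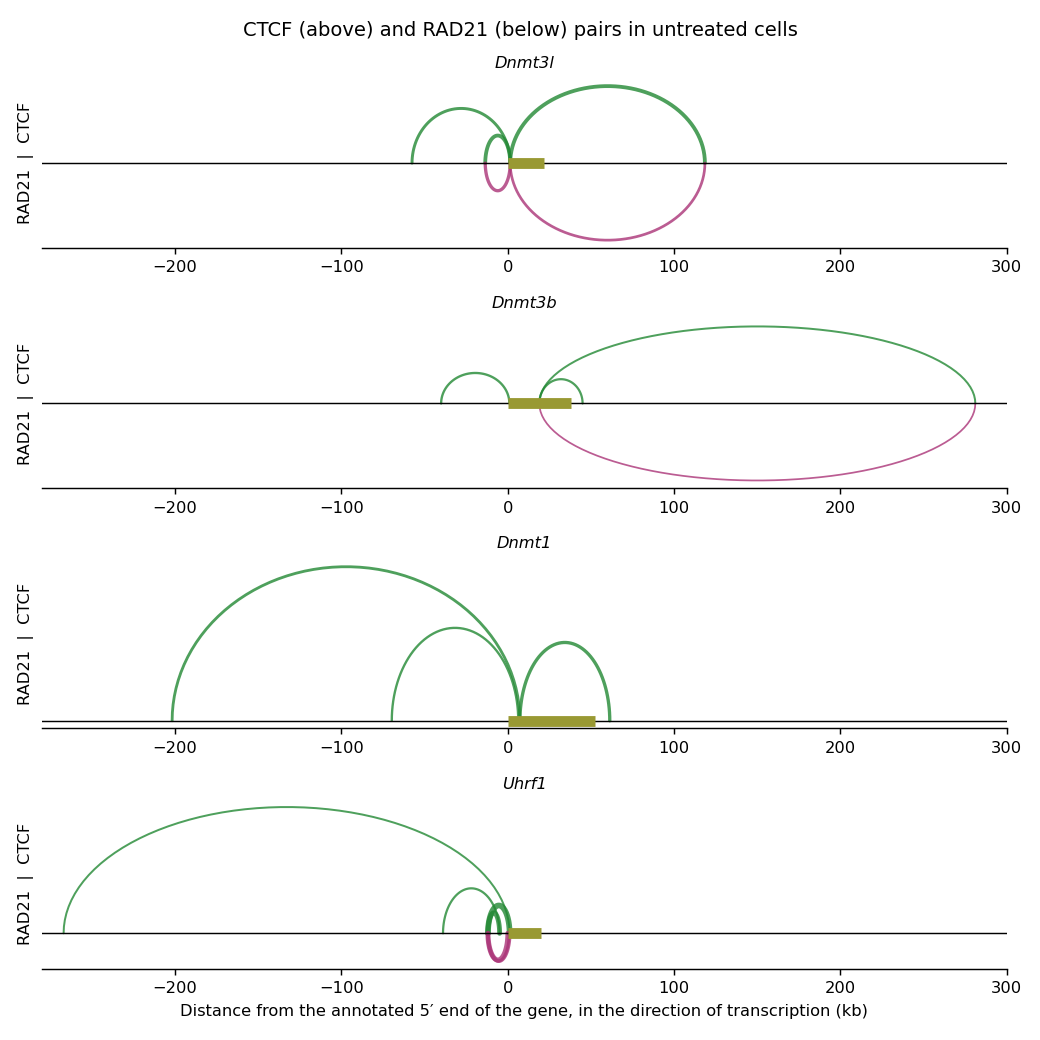
CTCF pairs (above) and RAD21 pairs (below) of untreated cells at Dnmt3l, Dnmt3b, Dnmt1 and Uhrf1; the horizontal axis is the distance in kb from the annotated 5′ end, along transcription, line width grows with contacts and arc height with the distance joined. RAD21 arcs are drawn for 2 of the 3 CTCF pairs at Dnmt3l and 1 of the 3 at Dnmt3b, and Dnmt1 has CTCF arcs alone.

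Over all the CTCF anchors of the 8 genes and their partners, 14 of 21 bins held a core match with up to 1 mismatch and 6 held one with none. Over all 34038 CTCF anchor bins the shares were 41.7% and 12.6%, and over the RAD21 anchor bins 46.7% and 15.6%. RefSeq promoters of 300 bases held one in 3.85% and 0.685% of cases, and none of the 15 RefSeq promoters of the 8 genes did. Of the 8 anchors inside a gene window 3 held a match, 2 at Dnmt3b and 1 at Dnmt3l. Of the 14 CTCF pairs 6 had a match with up to 1 mismatch on each side, and 4 of those were convergent. With no mismatch, only the Dnmt3l pairs of the shared anchor with the upstream and downstream anchors had a match on each side. The former was convergent and the latter tandem. The share of convergent pairs over the whole CTCF list was not computed.

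Partners of the H3K27ac pairs outside the windows were 26 bins, 5 for Tet1, 4 for Tet2, 10 for Dnmt1 and 7 for Uhrf1. A protein-coding start lay in 12 of them, against 42.7% of the partner bins of all protein-coding genes, and 7 were intergenic, against 22.4%. Of the 26, 9 were met in both lists, against 35.5% over all protein-coding genes, 10 before IAA alone and 7 after IAA alone. Uhrf1 had 5 of its 7 partners in both lists, Dnmt1 had 3 of 10, Tet1 had 1 of 5 and Tet2 had 0 of 4. A CTCF anchor lay in 10 of the 26 bins and a RAD21 anchor in 6, against 36.7% and 30.9%.

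Genes that work with the 8 were described the same way, from a list of 36 that holds UHRF1 and imprint cofactors, enzymes of methyl donor metabolism, base excision enzymes and methyl-CpG readers. An untreated H3K27ac pair was listed at 27 of them, an IAA pair at 26, a CTCF pair at 25 and a RAD21 pair at 21. Over all protein-coding genes the shares were 41.9%, 38.3%, 53.9% and 41.9%. They had 353 pairs before and 313 after IAA, and 161, or 45.6%, of the former were called again, against 42.9% over all pairs. No pair of the list passed the adjusted exact binomial test in either direction. For the 9 with at least 5 shared pairs, the median log2 ratio of summed contacts was 0.03.

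By summed contacts over the 4 lists, on the log2(contacts + 1) scale, the genes nearest to Tet1 were Schip1 (Euclidean distance 0.46) and Zbtb44 (0.47). Those nearest to Tet2 were Mtf2 (0.74) and Ooep (1.02), to Dnmt1 Zmym6 (0.19) and Sept2 (0.20), and to Uhrf1 Iffo1 (0.35) and Patz1 (0.43). Tet1 itself had 562 H3K27ac contacts before and 582 after IAA, 0 CTCF contacts and 12 RAD21 contacts. For Zbtb44 the values were 665, 698, 0 and 15, and for Schip1 664, 489, 0 and 15. The nearest genes of Tet2 were further off than those of the other 3, which had fewer contacts.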

How the data were processed

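Deposited values were 4 lists of called interactions, 1 per group, pooled over 2, 2, 2 and 3 replicates. Nothing in the labels says that replicates were separate cultures. Per the labels, interactions were kept at a FitHiC q of 0.05. Per the submitters' processing notes, the build was mm10 and Trim Galore, BWA, MACS2 and deepTools were used. Their settings are not given in the sources used here. Per the file headers, each row holds the contact count of a bin pair, the coverage count of each bin, and a flag for bins in a peak. The authors also deposited an expected contact value, a model score that is not a whole number, a binomial probability given as a fraction, and a p-value and q-value.

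Members were found by overlap with GENCODE M21 gene bodies, and all 21911 protein-coding genes were treated alike. A shared pair is the same 2 bins in both H3K27ac lists. An exact two-sided binomial test compared its 2 counts with the split over all 15551 shared pairs, adjusted by Benjamini-Hochberg over all of them (threshold 0.05). Shares carry Wilson intervals and ratios exact binomial intervals, both at 95%. Reads from PCR without molecular identifiers are not independent molecules, so intervals cover counting error only. Depth is the contact total of each list's model, inferred from the expected contacts and binomial probabilities of its pairs. CTCF motif cores (up to 1 mismatch, both strands) and promoter sequences came from RefSeq GRCm38.p6, the same assembly as mm10. All 8 genes matched, with 15 promoters. Named pairs were those with most contacts, the highest and lowest ratio, and the strongest in 1 list. Partner genes were named by a start site in such a pair's bin or where 3 or more pairs reached them. Other partner genes were named after their values were seen. The 8 genes and all lists were chosen with earlier results of these data known. Alternatives changed the q limit, window, contact minimum, scaling, bin tolerance and list length. Python 3.11.15, NumPy 2.4.6, pandas 2.3.3, SciPy 1.17.1 and Matplotlib 3.10.9 were used.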

Additional observations from a re-analysis of the deposited data

How the results depend on the processing

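No paired analysis was possible because each list merges its replicates and no column carries a replicate number; for the same reason replicates were not left out in turn. For results over the 8 genes, 34 values under an alternative stayed within the spread allowed, 17 moved beyond it and 1 changed sign. The summed log2 ratio was -0.38 with model totals and 0.17 with anchor coverage, and that of Tet2 was -0.49 and 0.18. Changed pairs numbered 1 with model totals, the Tet2 pair of 188 contacts. They numbered 28 when contacts were summed over anchors free by 1 bin: 9 at Tet1 (6 higher, 3 lower), 14 at Tet2, all lower, and 1 at Dnmt1 and 4 at Uhrf1, all higher. By construction those sums overlap and give 0 to neighbours not listed, and 26.1% of all 23831 pairs were then called. The share called again was 81.4% with anchors free by 1 bin, against 65.7% of all pairs. Bins with a GENCODE coding start alone, which leave out the RefSeq start bin of Tet1, held 26 untreated and 20 IAA pairs, 9 CTCF pairs and 4 RAD21 pairs. A window of 20 kb held 78 CTCF and 22 RAD21 pairs, and a q of 0.01 left 9 and 5. Untreated pairs on a CTCF pair were 6 of 111 with 20 kb and 7 of 86 with free anchors, and on a RAD21 pair 15 of 86 with free anchors (13.1% and 13.2% of all pairs with free anchors). Partner bins widened by 1 bin held a coding start in 19 cases, and no share over all protein-coding genes was computed at that width. Motif cores with no mismatch were in 6 anchor bins. A pair not listed has no count, so its contacts in that list are unknown.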

Other observations

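Among the 36 genes that work with the methylation enzymes, contacts were spread unevenly. Zfp57, which encodes a zinc finger protein that guards imprints, had 69 untreated and 78 IAA H3K27ac pairs, of which 50 were shared with 1281 and 1229 contacts. Trim28, the corepressor that ZFP57 recruits, had 77 and 54 pairs, of which 34 were shared with 981 and 953 contacts. Dppa3, whose product keeps UHRF1 from chromatin, had 4 pairs before and 16 after IAA, and all 4 were called again with 86 and 98 contacts. Ahcy, which clears the by-product of methyl transfer, had 1 pair before and 12 after. In the other direction, Gadd45b had 21 and 8 pairs and Prdm14, a repressor of the de novo enzymes in naive cells, had 11 and 3. The windows can take in pairs of neighbouring genes. These 6 genes were chosen after their values were seen, and numbers of calls in lists of unequal length carry no test.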
